A study of Mus musculus with 2 samples.

Results

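The T cell cytokine genes Ifng, Il2, Il4, Il13, Il17a, Il10, Ebi3, Csf1, Csf2 and Lif were followed through the lineages of T cells taken from mouse melanomas. They were chosen by name, as cytokine genes that T cells are known for, and are 10 of the 31053 mouse genes in the count table. The T cells were sorted by flow cytometry from B16 tumors, grown from a mouse melanoma cell line, and from B16–IL-33 tumors, grown from the same line engineered to overexpress secreted interleukin-33 (IL-33), on day 9 after inoculation. The study's methods put all mice on the C57BL/6 background and name no altered allele for the hosts of this experiment, and their age is not given in the sources used here. Cells of both tumors carried hashtag antibodies and were pooled before loading, so that 1 pool gave 1 library for 5′ gene expression, 1 hashtag library and 1 table of T cell receptor (TCR) contigs. With 1 pool there was no replicate check and no test, and cells of 1 pool are not replicates. Each interval given in parentheses is an exact 95% interval that covers counting error only.

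Cytokines are secreted proteins by which T cells instruct other cells. Interferon-γ (Ifng) activates macrophages and antigen presentation, and interleukin-2 (Il2) is a T cell growth factor. Interleukin-4 and interleukin-13 (Il4, Il13) are the cytokines of type 2 help, and interleukin-17A (Il17a) draws neutrophils through epithelial and stromal cells. Interleukin-10 (Il10) restrains myeloid cells and T cells, and Ebi3 is a subunit that interleukin-27 and interleukin-35 share, so its level does not tell which of them is made. Csf1 and Csf2 encode growth factors of myeloid cells, and Lif encodes a cytokine of the interleukin-6 family. Many of these genes are nearly silent in resting T cells and are switched on after TCR engagement through factors that include NFAT, AP-1 and NF-κB.

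The promoters of Ifng and Il2 and of the neighbouring type 2 genes Il4 and Il13, whose levels separated the lineages, are shown because these genes are textbook targets of NFAT. Each line holds 180 bases that end 10 bases before the annotated start, read 5′ to 3′ on the strand of the gene, from RefSeq on GRCm38.p6, and no exon of GENCODE vM21 overlaps them. Capitals mark the NFAT core GGAAA, which reads TTTCC from the other strand, and the TATA box TATAAA, both searched on both strands.
Ifng (chr10:118440856-118441035, plus strand): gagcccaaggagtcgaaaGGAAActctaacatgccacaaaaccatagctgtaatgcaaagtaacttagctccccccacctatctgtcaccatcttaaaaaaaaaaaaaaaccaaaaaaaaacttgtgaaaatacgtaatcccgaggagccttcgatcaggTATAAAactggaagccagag
Il2 (chr3:37125965-37126144, minus strand): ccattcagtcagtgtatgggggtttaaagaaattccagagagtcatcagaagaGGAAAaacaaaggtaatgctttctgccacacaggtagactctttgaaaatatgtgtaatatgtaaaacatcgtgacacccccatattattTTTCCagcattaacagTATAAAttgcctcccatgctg
Il4 (chr11:53618676-53618855, minus strand): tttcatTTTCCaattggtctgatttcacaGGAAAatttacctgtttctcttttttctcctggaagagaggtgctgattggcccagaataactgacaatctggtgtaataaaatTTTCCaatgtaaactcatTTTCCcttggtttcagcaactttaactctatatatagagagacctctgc
Il13 (chr11:53634713-53634892, minus strand): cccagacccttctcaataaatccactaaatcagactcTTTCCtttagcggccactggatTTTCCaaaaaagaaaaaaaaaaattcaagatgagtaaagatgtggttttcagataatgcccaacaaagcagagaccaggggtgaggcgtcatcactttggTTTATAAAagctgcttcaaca

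The Il4 stretch held 4 NFAT cores, at 184, 161, 77 and 59 bases before the start, and no TATAAA. The Il13 stretch held 2 cores, at 153 and 131 bases, and 2 overlapping matches of TATAAA on opposite strands, at 31 and 29 bases. In Il2 the cores lay at 137 and 47 bases and TATAAA at 31 bases, and in Ifng 1 core lay at 172 bases and TATAAA at 30 bases. Over the 250 bases before the start, the NFAT core was found in 55.6% of the 32851 promoters of the table, TATAAA in 12.4%, the AP-1 letters TGANTCA in 6.75% and the NF-κB motif (3 G, any 2 bases, then TTTCC) in 1.41%. Promoters were matched for 9 of the 10 genes, and among these Il17a and Lif held the AP-1 letters and Csf1 held the NF-κB motif. A match describes the letters of the window and not binding.

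Il4 and Il13 lie side by side on the minus strand of mouse chromosome 11 (mm10), at 53602982 to 53618669 and 53631324 to 53634702, with Csf2 at 54247271 to 54249667 and Lif at 4257557 to 4272514 on the same chromosome. Ifng lies on chromosome 10 at 118441046 to 118445892, and Ebi3 on chromosome 17 at 55952640 to 55957022. Il10 and Il17a lie on chromosome 1, at 131019845 to 131024974 and 20730905 to 20734496, and Il2 and Csf1 on chromosome 3, at 37120523 to 37125959 and 107741048 to 107760469.

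Of 14035 barcodes, 9844 had at least 200 detected genes and under 5% mitochondrial UMIs (unique molecular identifiers, each standing for 1 captured transcript), with a median of 2639 UMIs per cell. CD8+ T cells had more Cd8a and Cd8b1 UMIs than Cd4 and Foxp3 UMIs (1538 cells, median 4189 UMIs). Regulatory T (Treg) cells had a Foxp3 UMI and no Cd8a or Cd8b1 UMI (2833 cells, median 2974). Conventional CD4+ T (Tconv) cells had a Cd4 UMI and none of Foxp3, Cd8a or Cd8b1 (1813 cells, median 2543). The last group had a UMI of Zbtb16, the transcription factor of innate-like T cells, and none of Foxp3, Cd8a or Cd8b1 (89 cells, median 3095). The groups together held 6247 cells, or 63.5% of the filtered cells. Of the filtered cells, 9627 had a barcode in the hashtag library and 6007 in the TCR table.

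The labels were checked against marker genes. CD3 or TCR constant UMIs were found in 98.7% to 98.9% of the cells of each group. In the Zbtb16 group, 20 of the 33 cells with an assembled alpha chain (60.6%) carried the invariant TRAV11 and TRAJ18 chain of natural killer T (NKT) cells, and since the chain was not found in all, the group is called Zbtb16+ T cells here. Of the γδ T cell genes, the δ constant gene Trdc had 1 UMI in it, or 2.55 CPM (UMIs per 1000000 UMIs of the group), against 2.45 in Tconv cells. The γ chain genes Trgv2 and Tcrg-C1 were at 99.5 and 35.7 CPM, and at 107 and 47.7 in all cells with the invariant αβ chain, where Trdc was at 0. Zbtb16+ T cells shared 26 cells with Tconv, which were taken out of Tconv where both were compared. Tconv cells held 1245 CPM of the 5 Treg markers, with Foxp3 at 0 by the rule, against 3788 in Treg cells. All 6 macrophage markers had UMIs in CD8+, Treg and Tconv cells, where they summed to 261, 157 and 105 CPM, and both mast cell markers were at 0 in every lineage.

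Cells that should lack most T cell cytokines gave the background. These 250 myeloid-like cells had at least 3 UMIs of myeloid markers and no UMI of CD3, of the TCR constant genes or of melanoma markers (median 2949 UMIs), the last criterion having been added after the data were seen. In them Ifng was found in 2.4% of cells, Il10 in 2.4%, Il4 in 0.4% and Il2 in 0 of 250, which allows a share of up to 1.2%. Csf1 and Ebi3 were well above such a level, at 53.0 (40.8 to 67.6) and 41.4 (30.7 to 54.6) CPM, so these cells carried both. Below, CPM is always the sum over the cells of a group, and levels were compared between groups for 1 gene at a time, since UMI counts from transcript ends were not set against gene length. In such sums, fewer expressing cells and less RNA per cell cannot be told apart. The share of cells with a UMI or the UMIs per positive cell are given beside many levels of the lineages, but beside few of the ratios within a lineage.

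In summed CPM the 10 genes parted by lineage: Ifng led in CD8+ T cells, Il10 and Ebi3 in Treg cells, Il4 in Zbtb16+ T cells, and Il2, Il13 and Lif in Tconv cells. The leads of Il13 and Lif had many of their UMIs in few cells. Relative to Tconv cells, Ifng was the 1 gene of 10 at least 2-fold higher in CD8+ T cells, and 7 were at least 2-fold lower, where 4.03% and 4.97% of the 9664 genes with at least 50 UMIs were that much higher and lower. The 7 were Il2, Il4, Il10, Il13, Il17a, Lif and Ebi3, with ratios from 0.0339 (Il13) to 0.328 (Ebi3). In Treg cells Il10 and Ebi3 were higher than in Tconv cells and 6 of 10 were lower, against 4.26% and 2.98% of all genes. The 6 were Ifng, Il2, Il4, Il13, Csf2 and Lif, with ratios from 0.183 (Il13) to 0.461 (Lif). In Zbtb16+ T cells Il4 was the 1 of 9 genes with enough UMIs that was higher than in Tconv cells without Zbtb16, and 6 were lower, against 2.7% and 11%. The 6 were Il2, Il10, Il13, Il17a, Csf2 and Ebi3, of which Il13 and Il17a were at 0 and the intervals of Il2 and Csf2 reached past 1. Set against CD8+ T cells, 6 of 8 genes (Il10, Il13, Il17a, Csf1, Lif and Ebi3) were higher in Treg cells and 2, Ifng and Csf2, were lower, against 8.02% and 3.11%. These comparisons share groups of cells and are not independent of each other.

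**Figure D1:**
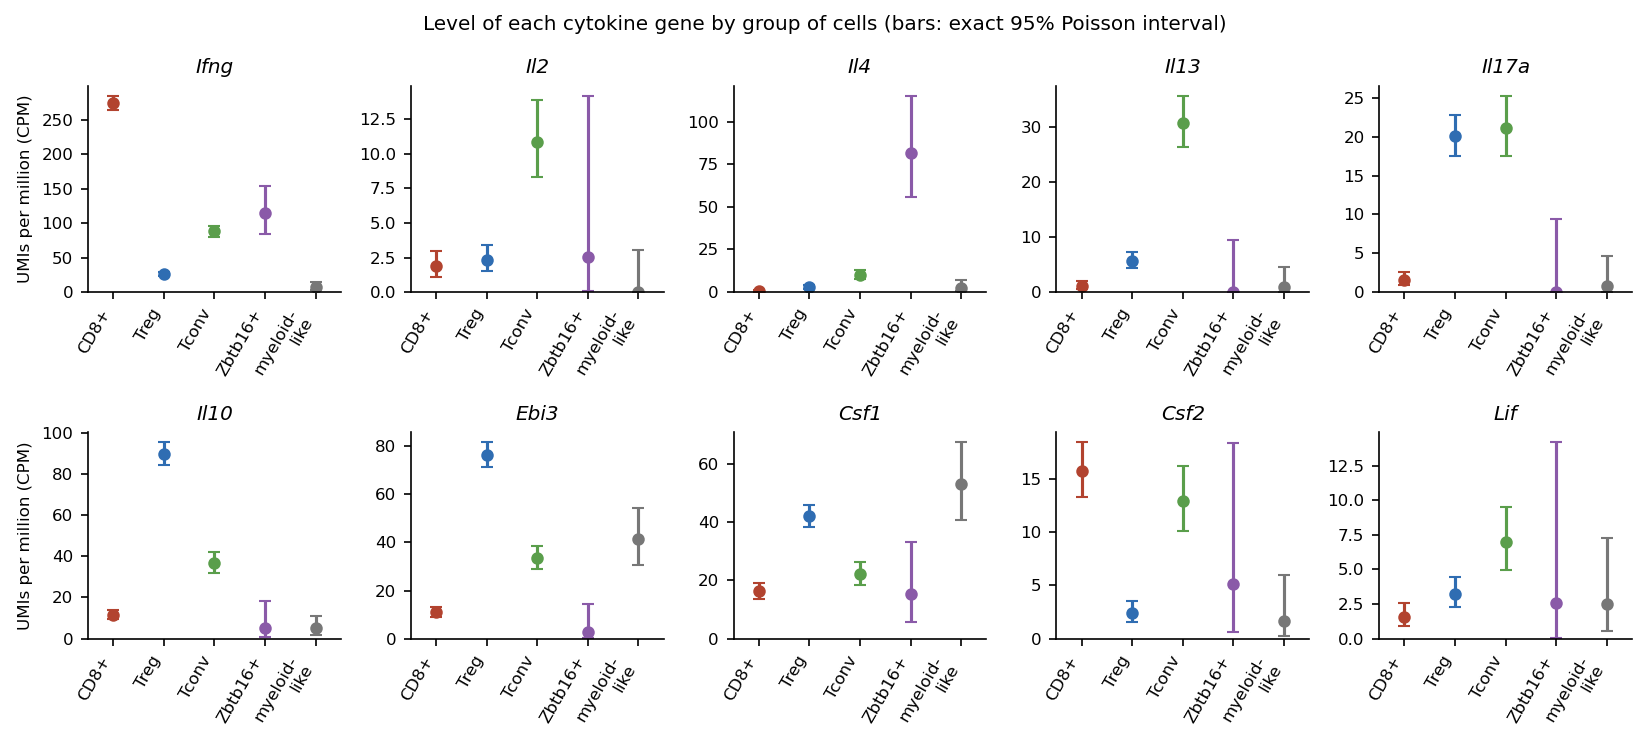
Each panel plots the level of 1 gene, in CPM on an axis from 0, in CD8+, Treg, Tconv, Zbtb16+ and myeloid-like cells, with exact 95% Poisson intervals. Ifng stood highest in CD8+ T cells (274 CPM), Il10 and Ebi3 in Treg cells (89.9 and 76.4), Il4 in Zbtb16+ T cells (81.6) and Il13 in Tconv cells (30.8).

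Ifng, the cytokine of cytotoxic and type 1 responses, was found in every lineage and was highest in CD8+ T cells. Its level was 274 (263 to 285) CPM in CD8+, 115 (83.7 to 154) in Zbtb16+, 87.9 (80.4 to 96.0) in Tconv and 26.3 (23.4 to 29.5) in Treg cells. The intervals of Zbtb16+ and Tconv cells overlapped, with a ratio of 1.34 (0.961 to 1.82), and the other neighbours in this order did not overlap. CD8+ T cells stood 3.11-fold (2.83 to 3.43) above Tconv cells. A UMI was found in 39.9% of CD8+, 21.4% of Zbtb16+, 12.9% of Tconv and 6.39% of Treg cells. Deeper cells show more genes, so each cell was also thinned to 1500 UMIs, which left out 109 CD8+, 454 Treg, 322 Tconv and 2 Zbtb16+ cells below that depth. The thinned shares were 21.0%, 12.1%, 8.59% and 3.37% and kept the order. In the myeloid-like cells the thinned share was 2.16% (0.660 to 6.05), an interval that held the 3.37% of Treg cells, so that the thinned share of Treg cells could not be told from background. The unthinned share of Treg cells, 6.39% (5.52 to 7.35), and their level lay above those of the myeloid-like cells, 2.4% (0.886 to 5.15) and 7.45 (3.41 to 14.1) CPM, at about the same median depth.

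Positive CD8+ cells averaged 4.28 Ifng UMIs at a median depth of 6063 UMIs. Positive Zbtb16+ cells averaged 2.37 at 3080, positive Tconv cells 2.15 at 2976 and positive Treg cells 1.62 at 3747, so depth moved with the UMIs per positive cell, and its part in them was not tested. The output of CD8+ T cells was uneven: the 16 highest CD8+ cells, 1% of the lineage, held 28.2% of its Ifng UMIs, and 128 cells with at least 5 UMIs held 66.9%. The highest cell had 177 Ifng UMIs and the next 83, and without the highest the CD8+ level was 255 CPM. Among genes with at least 50 UMIs in Ifng+ CD8+ cells, the highest ratios over Ifng-negative CD8+ cells belonged to granzyme genes and others, namely Gzmf at 20.5-fold with 658 of its 1198 UMIs in 1 cell, Gzmd at 6.89-fold (5.01 to 9.70), Spin4 at 5.998-fold (2.71 to 15.7), Serpinb9b at 5.67-fold (4.29 to 7.63) and Gzmc at 5.66-fold (5.24 to 6.13). Ifng+ CD8+ cells were also deeper than the others, with medians of 6063 and 3431 UMIs. In Tconv cells, the interleukin-12 receptor gene Il12rb2, a marker of type 1 cells, was 2.61-fold (1.77 to 3.79) in Ifng+ cells.

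Il2 was sparse, low in each cell and highest in Tconv cells. Its level was 10.8 (8.31 to 13.9) CPM in Tconv, 2.33 (1.52 to 3.41) in Treg and 1.88 (1.11 to 2.97) in CD8+ cells, and Zbtb16+ T cells had 1 UMI. The Treg level was 0.215-fold (0.130 to 0.345) that of Tconv cells, and the intervals of Treg and CD8+ cells overlapped. Il2 was found in 56 Tconv cells (3.09%, and 1.79% after thinning), 91.1% of them with a single UMI, and no cell of a lineage had more than 3. The shares of Treg (0.777%) and CD8+ cells (1.11%) lay below the 1.2% that 0 of 250 myeloid-like cells allow. The cell with the most Il2 lay outside the lineages because it had no UMI of Cd4, Foxp3, Cd8a, Cd8b1 or Zbtb16. It had 37 Il2 UMIs and 35 Ifng UMIs among 3452, with 14 CD3 and TCR UMIs and 1 beta chain, against 187 Il2 UMIs in all filtered cells. Among genes with at least 50 UMIs in Il2+ Tconv cells, Ctla2a had the highest ratio over Il2-negative Tconv cells, at 2.20-fold (1.69 to 2.83). Epsti1 followed at 2.07-fold (1.62 to 2.60), then Slfn1 at 1.97-fold, Plac8 at 1.88-fold and Pgls at 1.69-fold. Of the helper list, Il2+ Tconv cells had more Pdcd1, the inhibitory receptor PD-1, at 2.31-fold (1.63 to 3.2). They had less Ikzf2, a transcription factor of Treg cells, at 0.339-fold (0.203 to 0.531). The receptor chain Il2ra was highest in Treg cells, with 411 CPM in Treg, 107 in Tconv and 62.3 in CD8+ cells.

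Il4 was highest in Zbtb16+ T cells and was spread over 22 of them. Its level there was 81.6 (55.8 to 115) CPM, against 10.1 (7.7 to 13.1) in Tconv, 2.87 (1.96 to 4.05) in Treg and 0.522 (0.170 to 1.22) in CD8+ cells, and none of these intervals overlapped. Myeloid-like cells had 2.48 (0.512 to 7.26) CPM, an interval that overlapped those of Treg and CD8+ cells. In Treg cells, 2 cells held 50% of the UMIs. The ratio of Zbtb16+ T cells to Tconv cells without Zbtb16 was 9.12 (5.66 to 14.5). Of the 89 cells 22 had an Il4 UMI (24.7%, and 12.6% after thinning), with 4 UMIs at most, and without the highest cell the level was 72.3 CPM. Among the 66 cells with the invariant NKT chain, a group defined by the TCR and not by Zbtb16 but sharing 20 cells with it, Il4 was 103 (67.5 to 151) CPM and Ifng 155 (110.1 to 212) CPM. Among genes with at least 50 UMIs in Il4+ Tconv cells, Plac8 had the highest ratio over Il4-negative Tconv cells, at 2.76-fold (2.21 to 3.40). Gata3, the transcription factor of type 2 help, followed at 2.60-fold (1.95 to 3.41), then Sptssa at 2.54-fold, Ly6c2 at 1.92-fold and Ctla2a at 1.88-fold. Il1rl1, the receptor of IL-33, was 2.82-fold (1.66 to 4.53) in Il4+ Tconv cells. Among these was a cell with 5 Il4, 91 Il13 and 8 Il1rl1 UMIs and no assembled beta chain. The ratio without this cell was not computed. Of the 44 Il4+ Tconv cells, 38 had no Zbtb16 UMI, and these ratios were taken over all 44.

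Il13, in contrast, came from a handful of cells. Tconv cells had 30.8 (26.4 to 35.7) CPM, Treg cells 5.64 (4.34 to 7.22) and CD8+ cells 1.04 (0.501 to 1.92), while Zbtb16+ T cells had 0 UMIs, which allows up to 7.65 CPM. Myeloid-like cells had 0.828 (0.0210 to 4.61) CPM, an interval that overlapped those of Treg and CD8+ cells. The Tconv level was made of 176 UMIs in 17 of 1813 cells, and 1 cell held 91 of them. Without this cell the Tconv level was 14.9 CPM. In Treg cells, 4 of the 10 positive cells held 57 of the 63 UMIs. Over all filtered cells, 12 cells with at least 5 Il13 UMIs held 85.7% of the transcript, all 12 had CD3 or TCR constant UMIs, and 7 had an assembled TCR.

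Summed over the Il13+ Tconv cells, several genes of type 2 help were higher than in the other Tconv cells, and single cells held many of these UMIs. The 17 Il13+ Tconv cells held 35 Il5 UMIs, in 4 cells, and the other 1796 Tconv cells held 2. Il1rl1 was 7.58-fold (4.86 to 11.4) and Gata3 2.21-fold (1.46 to 3.22) in them. The cell with 91 Il13 UMIs also had 5 Il4, 16 Il5 and 8 Il1rl1 UMIs, and the next, with 24 Il13 UMIs, had 5 Il5, 6 Il1rl1 and 9 Areg UMIs. Neither had an assembled TCR beta chain, and they had 5 and 6 CD3 and TCR constant UMIs. The ratios of Il1rl1 and Gata3 without these cells were not computed. Of the 17 Il13+ Tconv cells, 10 had an assembled TCR (58.8%, against 67.1% of Tconv cells). The 4 marker genes of group 2 innate lymphoid cells, Gata3, Il1rl1, Rora and Areg, summed to 1086 CPM in Treg, 513 in Tconv, 344 in Zbtb16+ and 212 in CD8+ cells, and the part of such cells, which a sort for the TCR β chain or for CD4 and CD8 would leave out, in the Il13 level was not tested.

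**Figure D2:**
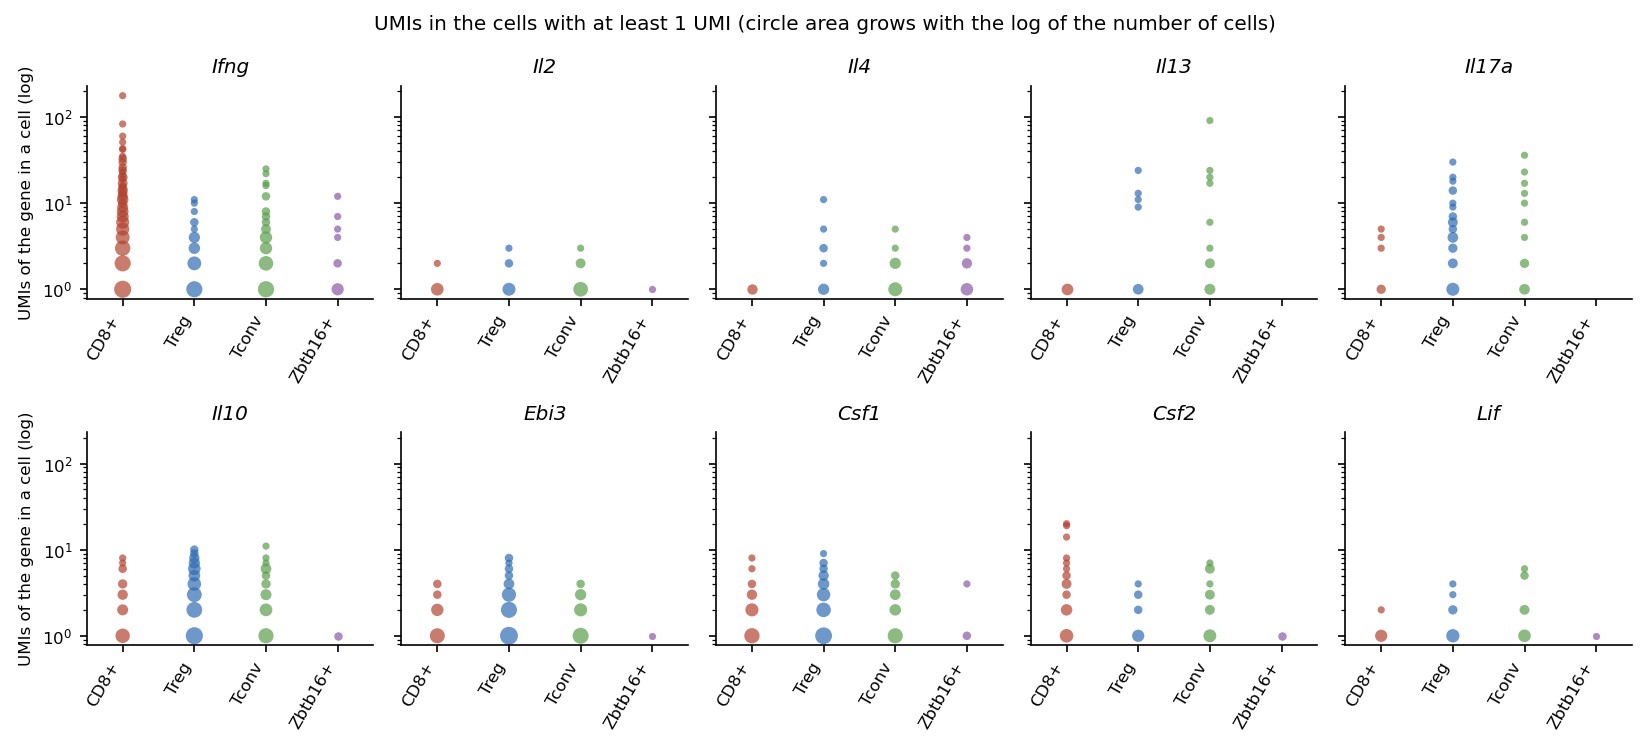
Each panel plots, on a log axis, the UMIs of 1 gene in every cell of a lineage that has at least 1, with larger circles for values shared by more cells. Il13 reached 91 UMIs and Il17a 36 UMIs in single cells, Ifng spread up to 177 UMIs in CD8+ T cells, and Il2 stayed at 3 UMIs or fewer.

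Il17a had about the same level in Treg and Tconv cells and was low in CD8+ T cells. The level was 20.1 (17.5 to 22.9) CPM in Treg and 21.2 (17.6 to 25.3) in Tconv cells, a ratio of 0.949 (0.757 to 1.19), with 1.57 (0.876 to 2.58) in CD8+ cells. Zbtb16+ T cells had 0 UMIs, which allows up to 7.65 CPM. Myeloid-like cells had 0.828 (0.0210 to 4.61) CPM, an interval that overlapped that of CD8+ cells but not those of Treg and Tconv cells. Few cells made it: 48 Treg cells (1.69%) with 4.67 UMIs each on average and 30 at most, and 16 Tconv cells (0.883%) with 7.56 on average and 36 at most. In Il17a+ Tconv cells the chemokine receptor genes Ccr4 and Ccr6 were 8.04-fold (3.58 to 15.8) and 7.70-fold (2.42 to 19.0), and these 16 cells held 5 Il17f UMIs against 2 in the rest of the lineage. The genes with the highest ratios in Il17a+ Treg cells were Il1rn, which encodes an antagonist of interleukin-1, at 4.78-fold (3.85 to 5.87), Rgcc at 4.34-fold (3.37 to 5.50), Ndrg1 at 3.55-fold (2.66 to 4.66), Areg at 3.19-fold (2.88 to 3.52) and the chemokine receptor gene Cxcr6 at 3.04-fold (2.34 to 3.88). Areg, which encodes the growth factor amphiregulin, had 77 of its 420 UMIs in 1 of these cells.

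Il10 was highest in Treg cells. Its level was 89.9 (84.4 to 95.6) CPM in Treg, 36.7 (31.9 to 42.0) in Tconv, 11.7 (9.63 to 14.1) in CD8+ and 5.1 (0.618 to 18.4) in Zbtb16+ cells. The Treg level was 2.45-fold (2.11 to 2.85) that of Tconv and 7.69-fold (6.32 to 9.43) that of CD8+ T cells. The CD8+ level was 0.319-fold (0.251 to 0.402) that of Tconv cells, but 1.07 among cells with fewer than 3 UMIs of myeloid markers, a limit that left 401 of the 1538 CD8+ cells. A UMI was found in 16.7% of Treg, 6.01% of Tconv and 4.10% of CD8+ cells, and in 10.3%, 3.32% and 1.62% after thinning. In the myeloid-like cells the unthinned and thinned shares were 2.4% and 0.636%.

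Lag3, an inhibitory receptor, was past 2-fold in the Il10+ cells of CD8+, Treg and Tconv cells alike. It was 2.60-fold (2.42 to 2.79) in Il10+ Treg, 6.43-fold (5.45 to 7.56) in Il10+ Tconv and 2.67-fold (2.27 to 3.12) in Il10+ CD8+ cells. Maf, a transcription factor known to drive Il10, was 2.82-fold (2.41 to 3.28) in Il10+ Tconv and 4.05-fold (3.13 to 5.17) in Il10+ CD8+ cells, and 1.504-fold (1.41 to 1.61) in Il10+ Treg cells. Ikzf2, a Treg gene, was 2.21-fold (1.88 to 2.58) in Il10+ Tconv, 2.62-fold (2.16 to 3.15) in Il10+ CD8+ and 1.06-fold (1 to 1.12) in Il10+ Treg cells, and the part of Treg cells without a detected Foxp3 UMI in the Tconv level was not tested. Among all genes, the highest ratios in Il10+ Treg cells belonged to Fn1, with 55 of 65 UMIs in 1 cell, and then to Angptl2 at 3.93-fold (3.04 to 5.08), the early response gene Egr3 at 3.87-fold (2.64 to 5.67), the chemokine gene Ccl4 at 3.84-fold (3.63 to 4.07) and Cryba4 at 3.21-fold (2.24 to 4.57).

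Ebi3, like Il10, was highest in Treg cells and lower in Tconv and then CD8+ cells. It was 76.4 (71.4 to 81.7) CPM in Treg, 33.4 (28.8 to 38.5) in Tconv and 10.96 (8.97 to 13.3) in CD8+ cells, with 1 UMI in Zbtb16+ T cells, and Treg cells stood 2.29-fold (1.95 to 2.69) above Tconv cells, which became 1.92 when 2 UMIs of the defining genes were required. It was found in 21.1% of Treg cells (10.4% after thinning), and 70.9% of these cells had a single UMI. Myeloid-like cells had it in 15.2% of cells (4.77% after thinning). Lag3 was not higher in Ebi3+ Treg cells, at 0.676-fold (0.623 to 0.732). Cdc6, a gene of DNA replication, was 5.87-fold (3.54 to 10.1) and Cenps, a gene of the centromere, 3.45-fold (2.45 to 4.89) in Ebi3+ Treg cells. The other leading genes rested on single cells, with 54 of 89 UMIs in 1 cell for Inhba, 55 of 86 for Fn1 and 61 of 143 for Ifitm1. Ebi3+ Treg cells were also deeper than the others, with medians of 4362 and 2701 UMIs, and the part of depth was not tested. In Treg cells with an Mki67 or Top2a UMI, the Ebi3 level was 1.04-fold (0.905 to 1.20) that of the rest. Ebi3 was found in 31.02% of those cells and 17.95% of the rest.

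Csf1, the growth factor of macrophages, was highest in Treg cells among the lineages, although the interval of the myeloid-like cells reached higher. It was 42.0 (38.3 to 46) CPM in Treg, 22.2 (18.5 to 26.4) in Tconv and 16.2 (13.7 to 18.9) in CD8+ cells, and Zbtb16+ T cells had 6 UMIs. Without cells that had at least 3 UMIs of macrophage genes, an alternative added after the data were seen, the ratio of Treg to Tconv cells was 1.97. With them it was 1.89 (1.55 to 2.32), also under 2. Csf1+ Treg cells had 2.30-fold (2.12 to 2.48) the Lag3 and 2.55-fold (1.78 to 3.60) the Il12rb2, but 0.259-fold (0.181 to 0.360) the Il1rl1. The 5 genes with the highest ratios in them were Dct, Syt4, Gzmc, Fn1 and Mlana. All 5 rested on single cells, with 249 of 314, 60 of 77, 44 of 55, 55 of 64 and 83 of 97 UMIs in 1 cell, in this order. Dct and Mlana are melanoma genes.

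Csf2, the growth factor GM-CSF, was shared by CD8+ and Tconv cells. It was 15.8 (13.4 to 18.5) CPM in CD8+, 12.9 (10.2 to 16.2) in Tconv and 2.42 (1.59 to 3.52) in Treg cells, with a ratio of CD8+ to Tconv cells of 1.22 (0.917 to 1.63) and of Treg to Tconv cells of 0.187 (0.116 to 0.294). Myeloid-like cells had 1.66 (0.201 to 5.98) CPM and a UMI in 0.8% of cells, which overlapped the level of Treg cells and was not below their share of 0.635%. The unthinned shares were 3.25% of CD8+ and 1.82% of Tconv cells, and the thinned shares 1.10% and 1.11%. In CD8+ cells the output was concentrated, since 8 of the 50 positive cells held 55.6% of the UMIs, and the positive cells were deep, with a median of 11066 UMIs. All 8 had an assembled TCR. The leading genes in Csf2+ CD8+ cells were Ccdc184 at 5.72-fold (4.04 to 8.01), Lad1 at 4.08-fold (2.97 to 5.51), the granzyme gene Gzmc at 3.71-fold (3.47 to 3.96), the chemokine gene Ccl1 at 3.23-fold (2.42 to 4.25), with 28 of 64 UMIs in 1 cell, and Hspb1, with 67 of 71 UMIs in 1 cell. In Tconv cells, Csf2+ cells had 2.67-fold (1.3 to 4.95) the Il12rb2 and 0.308-fold (0.172 to 0.509) the Ikzf2.

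Lif had the fewest UMIs of the 10, with 138 in all filtered cells, although Il13 and Il17a were found in fewer cells (48 and 92, against 104). It was 6.99 (4.996 to 9.52) CPM in Tconv, 3.23 (2.26 to 4.47) in Treg and 1.57 (0.876 to 2.58) in CD8+ cells, and 6 UMIs was the most in any cell of a lineage. Myeloid-like cells had 2.48 (0.512 to 7.26) CPM, an interval that overlapped those of all 3. In Tconv cells, 3 of the 23 positive cells held 40% of the UMIs. A Lif UMI was found in 1.27% of Tconv, 0.988% of Treg and 0.910% of CD8+ cells. After thinning the shares were 0.659%, 0.340% and 0.309%, with overlapping intervals. Its leading genes in the 28 Lif+ Treg cells were Penk and Cxcl2, with 123 of 175 and 112 of 126 UMIs in 1 cell, followed by the heat shock gene Dnajb1 at 4.51-fold (3.81 to 5.30), and by Ifitm2 and Fcer1g, with 26 of 50 and 35 of 75 UMIs in 1 cell.

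**Figure D3:**
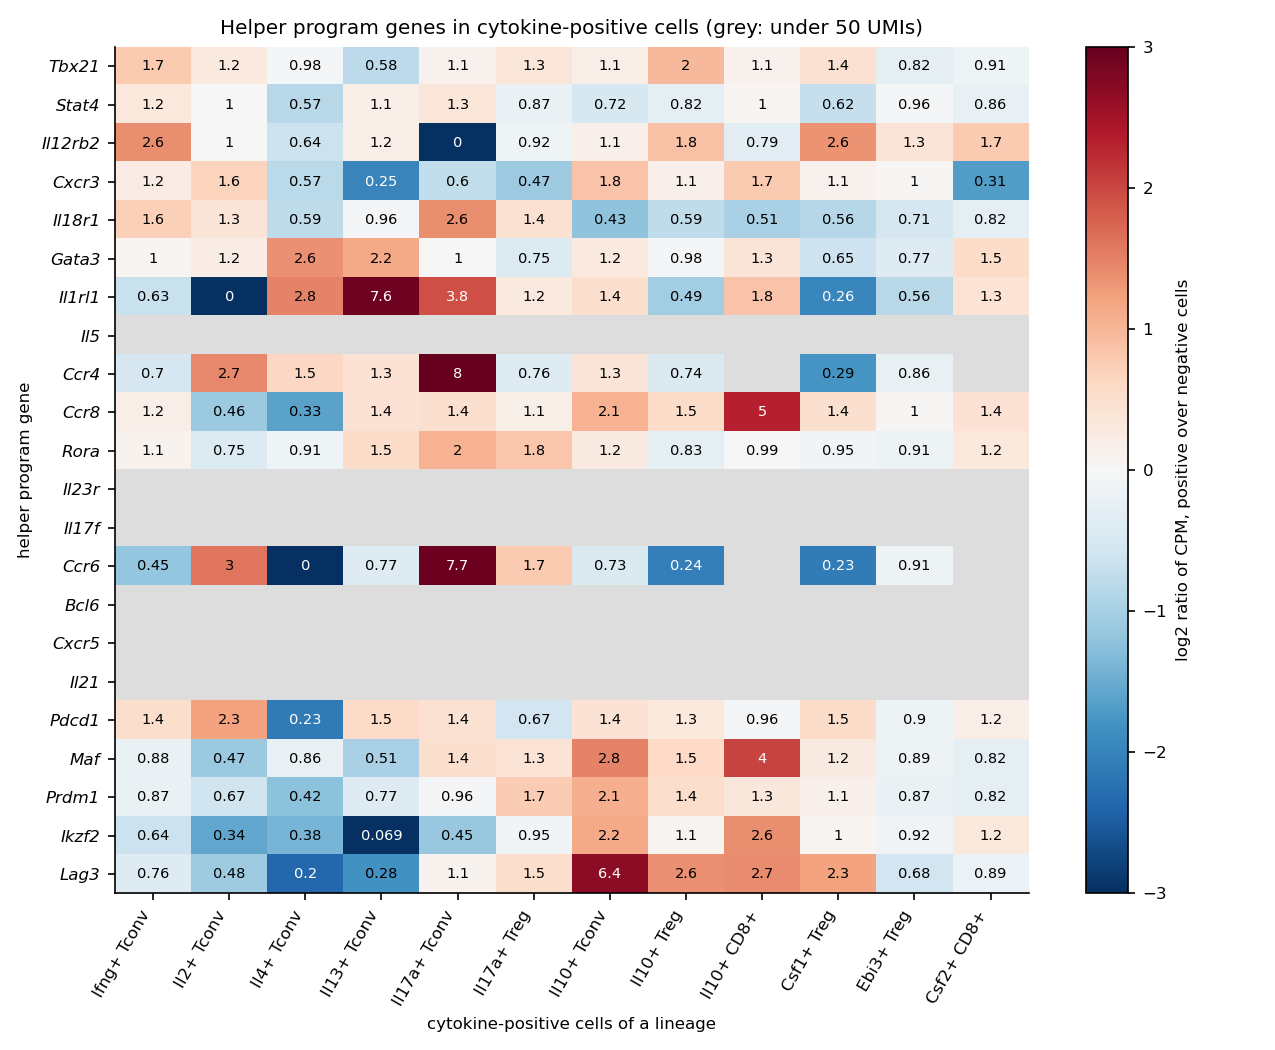
Rows are genes of the helper programs, columns are the cells of a lineage positive for 1 cytokine gene, and each cell of the grid is the ratio of CPM in positive over negative cells, coloured on a log2 scale and grey where it was not computed. Lag3 was higher in the Il10+ cells of 3 lineages (2.60, 6.43 and 2.67) and Il1rl1 in Il13+ Tconv cells (7.58).

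Most cells had none or 1 of the 10 genes. None was detected in 51.4% of CD8+, 55.4% of Treg, 65.9% of Tconv and 51.7% of Zbtb16+ cells. At least 3 were detected in 33 CD8+, 60 Treg and 22 Tconv cells, with 4 as the most in 1 cell. For each pair, the number of cells with both was set against the number expected if the genes were independent within 5 bins of UMI depth holding equal numbers of cells, and pairs found in at least 5 cells were read. Of 36 such pairs in a lineage, 8 had an interval above 1 and 1 below 1, and these are given here with some of the rest. The share of pairs of other genes with such intervals was not computed, so these counts have no background. Depth still varied within a bin, and its part in the ratios was not tested.

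Il10 and Csf1 were found together more often than this in Treg and Tconv cells. In Treg cells they met in 88 cells where 50.1 were expected, a ratio of 1.76 (1.41 to 2.17), and in Tconv cells in 18 where 5.90 were expected, a ratio of 3.05 (1.81 to 4.82). In CD8+ cells they met in 9, a ratio of 1.92 (0.878 to 3.64) whose interval held 1. Il10 and Ebi3, both highest in Treg cells, met there in 119 cells where 104 were expected, a ratio of 1.15 (0.950 to 1.37) whose interval held 1, but in 17 Tconv cells at 1.84 (1.07 to 2.94) and in 8 CD8+ cells at 2.19 (0.946 to 4.32). Csf1 and Ebi3 met in 17 Tconv cells at 1.87 (1.09 to 2.999), in 17 CD8+ cells at 1.80 (1.05 to 2.89) and in 83 Treg cells at 1.22 (0.973 to 1.51). Tconv cells held 1245 CPM of the Treg markers, and the part of Treg cells without a detected Foxp3 UMI in the Tconv pairs was not tested. In Tconv cells, Csf1 and Csf2 met in 8 cells at a ratio of 3.63 (1.57 to 7.15), and Csf2 and Ebi3 in 13 at 2.88 (1.53 to 4.92). Ifng and Ebi3 met less often than expected there, in 13 cells where 23.0 were expected, a ratio of 0.566 (0.301 to 0.967). In CD8+ cells Ifng and Csf2 met in 31 cells at 1.07 (0.725 to 1.51) and Ifng and Csf1 in 70 at 1.27 (0.990 to 1.60), while Csf2 and Ebi3 met in 12 at 2.26 (1.17 to 3.95). Il4 and Il13 shared at most 3 cells in any lineage and were below the minimum of 5.

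**Figure D4:**
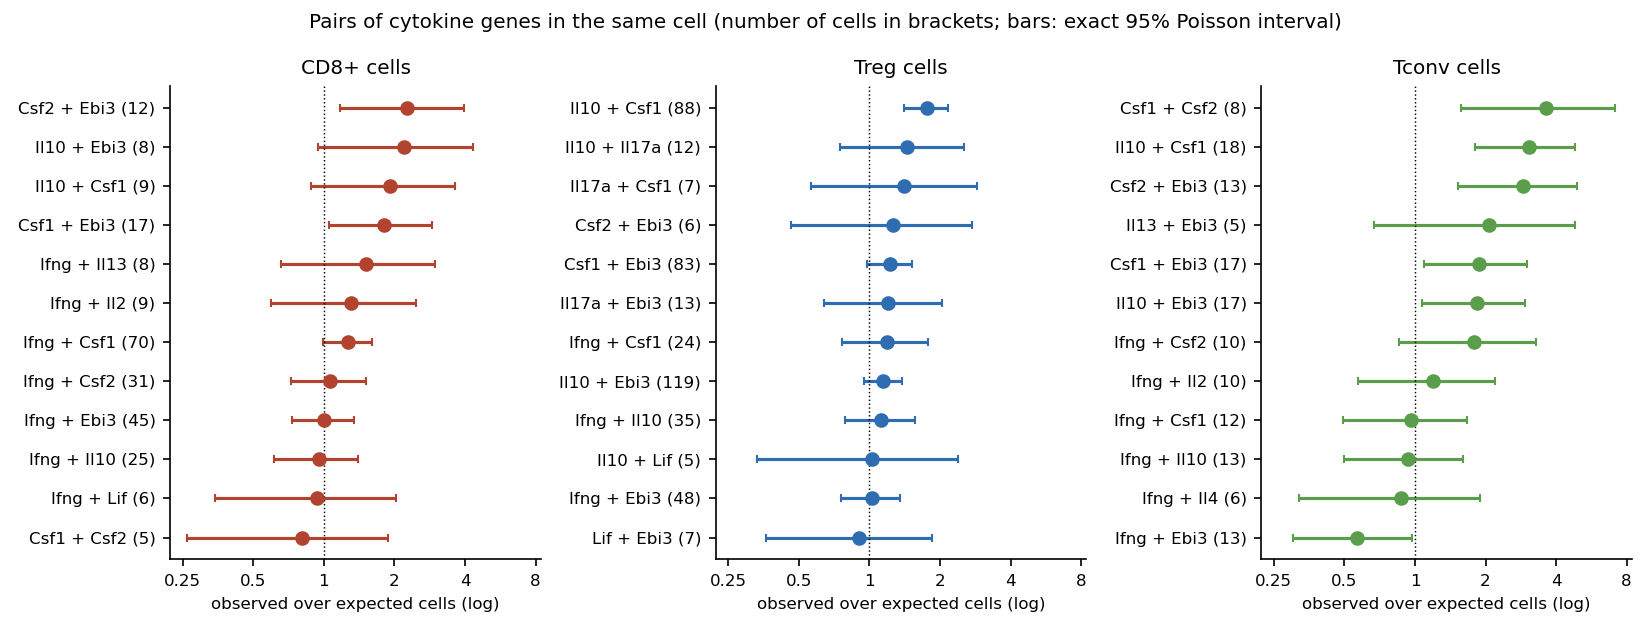
Each point is the number of cells with both genes of a pair over the number expected within 5 bins of depth, on a log axis, with the exact 95% Poisson interval of the observed number. The intervals of Il10 with Csf1 lay above 1 in Treg and Tconv cells, and that of Ifng with Ebi3 lay below 1 in Tconv cells.

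Within each lineage, cells were split by a UMI of 1 gene that marks a state, and a gene was compared where both sides together had at least 50 UMIs, which Lif never reached. In CD8+ T cells, calls lay along Tnfrsf9 and the cell cycle. The positive CD8+ cells were also deeper than the negative ones. Their median UMIs were 7174 against 3098 for Tnfrsf9, 8633 against 3334 for cycling and 7782 against 3144 for Pdcd1. In Treg and Tconv cells the gaps were smaller, with 4421 against 2731 in cycling Treg cells. The part of depth in the ratios was not tested. With Tnfrsf9, the costimulatory receptor 4-1BB, Il10 at 2.23 (1.41 to 3.66) and Csf1 at 2.09 (1.42 to 3.13) were past 2-fold (background 4.06%) and Ifng was at 1.85 (1.69 to 2.02). Cycling cells, with an Mki67 or Top2a UMI, had more Csf2 at 2.38 (1.66 to 3.47) (background 5.73%), while Ifng was at 0.615 (0.568 to 0.665). An Ifng UMI was nevertheless found in more of the cycling than of the other CD8+ cells, 53.95% against 33.92%. None of the 5 genes with enough UMIs was called in the other direction along Tnfrsf9 or cycling (backgrounds 4.3% and 3.06%). Without the highest cell of each side, Ebi3 in cycling cells went from 1.96 to 2.1 and Il10 from 0.566 to 0.4999. With Pdcd1, 0 of 5 genes were past 2-fold in either direction (backgrounds 2.66% and 4.04%), and Ifng was at 1.49 (1.37 to 1.61).

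In Tconv cells, Cd40lg, the ligand by which helper cells act on other cells, parted Ifng, Csf2, Il17a and Il13 from Il10 and Csf1. In the 496 cells with a Cd40lg UMI, 4 of 9 genes were at least 2-fold higher (background 0.446%), namely Ifng at 2.08 (1.74 to 2.49), Csf2 at 2.56 (1.58 to 4.17), Il17a at 6.31 (4.15 to 9.82) and Il13 at 14.5 (9.29 to 23.5). The last 2 rested on few cells. Il17a had 90 UMIs in 7 cells (1.41%) against 31 in 9 (0.683%). Il13 had 153 UMIs in 11 cells (2.22%) against 23 in 6 (0.456%). Without the highest cell of each side the ratios were 6.53 and 22.5. Il10, at 11.7 against 48.2 CPM (0.242, 0.146 to 0.38), and Csf1, at 0.481 (0.292 to 0.761), were lower (background 2.45%). Il2 at 1.20 (0.677 to 2.06) and Il4 at 1.65 (0.939 to 2.86) were not called. Along Tnfrsf9, 5 of 9 genes were higher in the 587 positive cells (background 3.32%). These were Csf1 at 4.39 (2.98 to 6.57), Il10 at 3.58 (2.67 to 4.81), Ebi3 at 2.70 (2.01 to 3.64), Csf2 at 2.29 (1.41 to 3.73) and Il13 at 4.17 (3.01 to 5.83), the last of which was 1.77 without the highest cell of each side, and none was lower (background 1.64%), although Il2 and Il17a were at 0.465 and 0.39 without these cells.

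Along Pdcd1, Csf2 at 4.11 (2.54 to 6.67) and Il2 at 2.14 (1.21 to 3.69) were higher (background 0.748%) and Il4 at 0.367 (0.115 to 0.913) was lower (background 2.81%) in Tconv cells. Without the highest cell of each side Il2 was at 1.96, no longer past 2-fold, Il13 went from 1.34 to 2.46 and Il17a from 1.12 to 0.269. Cycling Tconv cells had less Il4, at 0.177 (0.0354 to 0.545) (background 1.68%), and more of none (background 4.84%).

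In Treg cells, the IL-33 receptor Il1rl1 parted Il13 from Csf1. The 539 Il1rl1+ cells held 59 of the 63 Il13 UMIs, in 6 cells, at 28.7 against 0.439 CPM, a ratio of 65.3 (24.2 to 247) where 0.812% of all genes were higher, and of 51.6 without the highest cell of each side. The highest of these cells, with 24 Il13 UMIs, had 1 Foxp3, 0 Cd4, 14 Areg and 2 CD3 and TCR constant UMIs and no assembled beta chain. Il1rl1+ Treg cells had 15.1 CPM of Csf1 against 48.1 in Il1rl1-negative cells, a ratio of 0.313 (0.210 to 0.451) where 3.05% of all genes were lower. Il10 was at 0.545 (0.443 to 0.665) and Ifng at 0.522 (0.347 to 0.758), both short of 2-fold, and Ebi3 was at 1.04 (0.869 to 1.23). Tnfrsf9+ Treg cells had more Il10, Ebi3 and Csf1, at 1.84 (1.501 to 2.28), 1.85 (1.48 to 2.34) and 1.91 (1.41 to 2.64), none past 2-fold. Their Il13 ratio of 0.324 (0.190 to 0.559) (background 3.49%) turned to 5.32 without the highest cell of each side. Il17a was lower in Treg cells with Pdcd1, at 0.251 (0.141 to 0.418) (background 1.15%) and in cycling Treg cells, at 0.260 (0.171 to 0.384) (background 1.54%). Cycling Treg cells also had less Ifng, at 0.469 (0.350 to 0.621). None of the 6 genes with enough UMIs was called higher with Pdcd1, cycling or Tnfrsf9 in Treg cells (backgrounds 0.461%, 5.02% and 2.85%). Without the highest cell of each side, Il13 with Pdcd1 went from 1.88 to 2.46, Il17a with Tnfrsf9 from 1.11 to 5.96 and Csf1 with Tnfrsf9 from 1.91 to 2.004. The Il13 ratios of Treg cells without the highest cells rested on under 50 UMIs, below the minimum for a comparison.

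**Figure D5:**
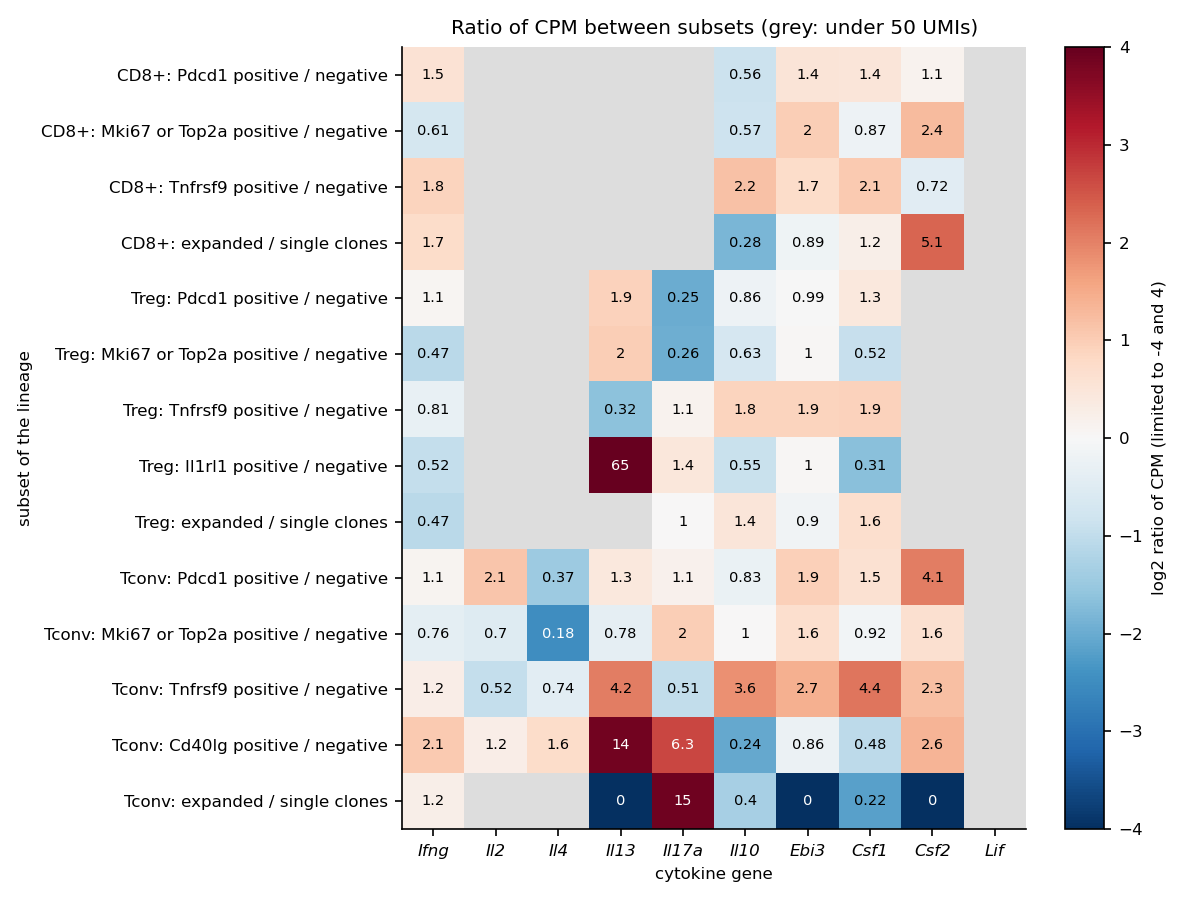
Rows are splits of a lineage by a gene or by clone size, columns are the 10 genes, and each cell of the grid is the ratio of CPM between the 2 sides, coloured on a log2 scale and grey where both sides together had under 50 UMIs. Il10 and Csf1 were higher in CD8+ cells with Tnfrsf9 (2.23 and 2.09), and Il13 was higher and Csf1 lower in Il1rl1+ Treg cells (65.3 and 0.313).

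Clonal expansion was read from the TCR table. In CD8+ T cells, 302 cells of clones with at least 2 cells were set against 869 cells alone in their clone. Ifng was 371 against 223 CPM, a ratio of 1.66 (1.52 to 1.81), and was found in 61.9% against 37.1% of cells. Csf2 was the 1 gene of 5 past 2-fold, at 42.4 against 8.36 CPM and a ratio of 5.07 (3.57 to 7.30) (background 0.464%), from 18 and 29 cells, and was 1.95 when expanded clones had at least 3 cells. Il10 was the 1 gene lower, with 8 UMIs against 72 and a ratio of 0.282 (0.117 to 0.586) (background 2.3%).

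In Tconv cells, 63 cells of expanded clones were set against 1154 single cells. Il17a was the 1 gene of 7 that was higher, at 15.0 (9.999 to 22.3) (background 3.69%), from 48 UMIs in 5 cells against 58 in 7, and it was 5.69 with clones defined by the beta chain alone. The 5 lower genes (background 9.92%) were Il10 and Csf1, at 0.402 (0.0819 to 1.20) and 0.223 (0.00559 to 1.28), both with intervals that reached past 1, and Il13, Csf2 and Ebi3, which had 0 UMIs in the expanded clones against 50, 61 and 154 in the single cells. Of these 5 ratios, that of Ebi3 alone had an interval that stayed below 1. With clones defined by the beta chain, Csf2 was 2.29 and Ebi3 1.39. In Treg cells, 127 cells of expanded clones had 0.470-fold (0.187 to 0.987) the Ifng of 1770 single cells, from 7 UMIs (background 5.21%), and Il10 and Csf1 were at 1.39 (1.08 to 1.77) and 1.59 (1.11 to 2.22).

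The effect of IL-33 in the tumor could be asked of few cells, because the 4 tags of the hashtag library held 102 to 929 UMIs each and most tagged cells had a single tag UMI. A further 22837655 UMIs of that library mapped to no tag. In B16–IL-33, 20 of 21 CD8+, 55 of 57 Treg and 17 of 17 Tconv cells had 1 tag UMI. Whether a single tag UMI marks the tumor of its cell was not tested. Tags of 1 tumor only were found in 21 B16–IL-33 and 142 B16 CD8+ cells, 57 and 281 Treg cells, and 17 and 170 Tconv cells. Ifng could be compared in CD8+ cells, and Il10, Csf1 and Ebi3 in Treg cells, and none of these 4 was past 2-fold (backgrounds 1.43% higher and 9.74% lower in CD8+, and 3.27% and 6.87% in Treg cells). Ifng was 220.4 CPM in B16–IL-33 and 242 in B16 CD8+ cells, a ratio of 0.911 (0.578 to 1.38). In Treg cells the ratios were 1.19 (0.722 to 1.88) for Il10, 1.45 (0.922 to 2.21) for Ebi3 and 1.95 (1.05 to 3.44) for Csf1. The intervals of Ebi3 and Csf1 reached past 2. Each tumor line had 2 numbered tags, whose meaning the labels do not give, and Csf1 in Treg cells was 68.7 and 84.0 CPM under the B16–IL-33 tags and 42.3 and 40.5 under the B16 tags, from 5, 11, 17 and 42 UMIs. None of the 10 genes had 50 UMIs in tagged Tconv cells, where 3.98% of all genes were higher and 11.4% lower. Which mouse a cell came from is not given in the sources used here, so that tumor line and mouse cannot be told apart.

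Other cytokine genes and the receptors of the 10 were read from the same cells. Of 36 other cytokine genes, 12 had at least 50 UMIs, of which 1 was highest in CD8+, 4 in Treg and 7 in Tconv cells, and 7 had none. The share of all genes highest in each lineage was not computed. Some leads lay within counting error, since the intervals of Treg and Tconv cells overlapped for Il16, Clcf1 and Osm, among others. The most abundant of the 36 was Ltb, a lymphotoxin subunit, at 605 CPM in CD8+, 1166 in Treg and 969 in Tconv cells, followed by Tgfb1, at 126, 168 and 143. The chemokine gene Xcl1 shared the order of Ifng, with 141 CPM in CD8+, 19.4 in Tconv and 5.20 in Treg cells, and Tnf was 23.2, 37.6 and 18.1. Il1b and Osm were highest in Treg cells among these lineages, at 21.7 and 15.4 CPM, but at 647 and 151 CPM in the myeloid-like cells. The rest of the 8 most abundant were Il16 and Clcf1, each between 10.5 and 73.4 CPM in these lineages. Among receptors, Ifngr1 was 358 CPM in CD8+, 585 in Treg and 523 in Tconv cells, Il10ra 92.7, 62.4 and 41.1, and Il27ra, the receptor of the interleukin-27 that contains Ebi3, 37.4, 66.6 and 73.3. Csf1r, the receptor of Csf1, stayed at 10.8, 8.33 and 5.77 CPM.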

How the data were processed

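The authors deposited raw UMI counts per gene and barcode from 5′ 10x libraries of 1 pool of sorted T cells, hashtag counts and a TCR contig table, aligned to mm10 with Cell Ranger (version 3.1.0 in the file header, 6.1.1 in the submitters' processing notes). The filtered cells held 40091218 UMIs, 254 to 78650 per cell, and 8562 UMIs on human genes were left out. The 10 genes and the lists of other genes were chosen with earlier results of these data known.

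Cells with at least 200 genes and under 5% mitochondrial UMIs were kept. The study also set an upper limit on detected genes, tried here as an alternative. No doublet caller was run, and cells with at least 2 productive beta chains were left out in an alternative. Clustering was not used, so lineages follow single genes and differ from those of the study. Summed CPM carry exact Poisson intervals, shares Clopper-Pearson intervals and ratios exact conditional binomial intervals. A ratio past 2-fold was called among genes with at least 50 UMIs on both sides together. A count of 0 was read as allowing up to 3 counts. UMI counts of 5′ ends were taken as deposited, and reads from overlapping or antisense genes were not separated here.

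Named besides the 10 genes were the 8 most abundant of the other listed cytokines and, for each of the 10 with at least 20 positive cells in the lineage with most of them, the 5 genes with the highest ratio of CPM in positive over negative cells, among genes with at least 50 UMIs in the positive cells (mitochondrial, ribosomal protein and TCR segment genes left out), together with the helper and receptor lists and the genes of the lineage rule. Cells were assigned to a tumor line from at least 1 tag UMI, all from tags of 1 line. Results of 1 split of the lineages by state and 1 gene of the helper lists are not reported here. Alternatives changed 1 choice at a time. Promoters came from RefSeq. Python 3.11.15, NumPy 2.4.6, SciPy 1.17.1, pandas 2.3.3 and Matplotlib 3.10.9 were used, and the scripts were tested on simulated data.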

Additional observations from a re-analysis of the deposited data

How the results depend on the processing

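Counts of the 10 genes (called, highest or paired) were recomputed under the alternatives, and 132 of 161 such values stayed within 1.5 times the main value. Of 1273 single values, 1055 stayed within the counting interval of the main value, 215 moved outside it and 3 changed direction. The largest losses came from 2 stricter choices of cells. When a CD3 or TCR UMI and under 3 UMIs of the myeloid markers were required, 401 of 1538 CD8+ cells were left, since the list holds Ly6c2, Ccr2 and Plac8 and 86.5% of CD8+ cells had a UMI of the monocyte markers. Under it, among CD8+, Treg and Tconv cells and leaving Zbtb16+ T cells aside, genes with their highest CPM in CD8+ T cells went from 2 to 1 and those lower in CD8+ than Tconv cells from 7 to 4, with Il10 turning to 1.07. Those lower in Treg than CD8+ cells went from 2 to 1, highest shares in CD8+ from 1 to 3 and in Tconv cells from 5 to 3, pairs in at least 2 times the expected cells from 2 to 1 in CD8+ and from 0 to 1 in Treg cells, and clone calls of lower level from 7 to 2. Leaving out only cells with macrophage genes moved 2 of the 8 lineage counts, from 6 to 7 lower in Zbtb16+ T cells and from 6 to 5 higher in Treg than CD8+ cells. When 2 UMIs of the defining genes were required, 644 of 1813 Tconv and 16 of 89 Zbtb16+ cells were left, and the calls went from 7 to 4 (lower in CD8+ than Tconv), from 2 to 1 and from 6 to 3 (higher and lower in Treg than Tconv) and from 1 to 0 (higher in Zbtb16+ T cells), Il4 then having too few UMIs to be compared. With the study's upper limit on detected genes, or the mean of each cell's CPM, 1 gene was highest in CD8+ T cells. Highest shares in CD8+ cells became 2 with under 10% mitochondrial UMIs, without cells with 2 beta chains, without thinning and at 1000 UMIs. Pairs in CD8+ cells became 1 without cells with 2 beta chains, 5 when the expectation ignored depth and 0 with 2 UMIs of each gene, which gave 2 in Treg and, from 4, 0 in Tconv cells. Between tumors, 1 call (Csf1 in Treg cells) appeared with under 10% mitochondrial UMIs (2.17) and with tag 2 alone (2.07). Clone calls of higher level went from 2 to 4 and of lower level from 7 to 1 with beta chain clones, where Csf2 and Ebi3 in Tconv cells turned to 2.29 and 1.39. Calls of higher level became 1 with expanded clones of at least 3 cells, and 1 without the cell with the most UMIs of the gene on each side, a choice made after the data were seen. Beyond the loss of cells and UMIs, the cause was not tested. No paired analysis was possible because the cells came from 1 pool in 1 library. Depth limited Il2, Il4, Il13 and Lif most, with 138 to 301 UMIs each in all filtered cells.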

Other observations

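A part of each cytokine gene lay in cells that the lineage rule did not place. Of all UMIs in filtered cells, 42.8% of Il2, 37.7% of Il4, 33.3% of Lif, 28.2% of Csf1 and 27.2% of Ebi3 were in the 3597 cells outside the lineages, against 17.3% of Il13 and 17.5% of Ifng. Of these cells 2712 had CD3 or TCR UMIs but no UMI of the lineage genes (median 1986 UMIs per cell), and in them Il2 was 9.77 (7.70 to 12.2) CPM, from 76 UMIs of which 37 were in 1 cell. Ifng was 75.7 (69.7 to 82.1) and Il10 27.5 (23.9 to 31.5) CPM there. Of the 66 cells with the invariant NKT chain, 20 were Zbtb16+ T cells, 20 were Tconv cells, 3 were Treg cells and 29 had no UMI of the lineage genes, where a cell can be both Zbtb16+ and Tconv.

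In the largest case of a clone with Ifng, 8 of the 10 CD8+ cells of 1 clone had an Ifng UMI, and 55 of the 418 clones with an Ifng+ CD8+ cell had at least 2 such cells. Among tagged Treg cells, most of them assigned from a single tag UMI, Il17a had 5 UMIs in 2 cells of a B16–IL-33 tag and 0 UMIs in 281 B16 cells.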
